A study of Homo sapiens with 6 samples.

Results

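TARDBP, the hnRNP proteins, the SR proteins and related splicing factors were followed as a group of 41 genes in RNA-seq of HepG2 cells, a human liver cancer line. The members were taken by gene symbol from a list of RNA-binding splicing regulators, and all 41 were found among the 20026 genes measured. To ask how loss of miR-23a or miR-27a altered the transcriptome, the study compared scramble control cells (Scr, labelled wild type) with cells in which CRISPR/Cas9 had disrupted miR-23a (miR-23a KO) or miR-27a (miR-27a KO). Each of the 3 groups held 2 libraries, 6 in all, and the labels name no treatment. The starting material was total RNA, and the study's methods name a kit for mRNA libraries. The KO cells were grown from selected clones, so clonal differences and the loss of a miRNA cannot be told apart, and the labels do not say which clone each replicate is. Both miRNAs are processed from a shared primary transcript. The miRNAs themselves were not analysed here, so the loss of each was not checked. By qPCR, the study reports less miR-23a-3p and also less miR-27a-3p in its miR-23a KO clones. In its miR-27a KO clones it reports less miR-27a-3p and slightly more miR-23a-3p. The study also reports less of the predominant mature form of miR-24, from the same primary transcript, in the clones of both knockouts. It describes knockout as not ideal for assigning roles to single miRNAs of this transcript. Differences in either KO group can therefore not be assigned to a single miRNA. Bulk RNA cannot tell fewer cells of a kind from less RNA per cell.

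Splicing factors of these families bind nascent transcripts and guide the spliceosome to exon borders. SR proteins mostly promote the use of an exon through serine- and arginine-rich tails, while many hnRNP proteins, which coat nascent RNA, oppose it. TARDBP (TDP-43) keeps cryptic exons out of messages, and many of these genes control their own level through exons that trigger decay of the transcript.

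The mature miRNAs are given because the deletions were aimed at them, with the seed (bases 2 to 8, which pair with a target) in capitals. Both come from chromosome 19, minus strand (RefSeq, GRCh38.p14): miR-23a-3p from chr19:13836595-13836615 and miR-27a-3p from chr19:13836447-13836467.
miR-23a-3p: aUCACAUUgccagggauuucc
miR-27a-3p: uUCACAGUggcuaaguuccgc
A 7-base match to the miR-23a-3p seed (AATGTGA) stood in the longest annotated 3'-UTR of 9 of the 41 members (22.0%), against 3073 of 15891 genes with a 3'-UTR (19.3%). A match to the miR-27a-3p seed (ACTGTGA) stood in 7 members (17.1%), against 2654 of all genes (16.7%). The median 3'-UTR was 2201 bases long in the members and 1224 in all genes. Only HNRNPU held both matches. The sites of the members that passed the test in miR-27a KO are shown, on GRCh38 with GENCODE 29 transcripts, each in a 3'-UTR exon and with the match in capitals. TARDBP held 3 miR-23a-3p matches, at chr1:11023808-11023814, chr1:11024861-11024867 and chr1:11026308-11026314 on the plus strand, and HNRNPU held 2, at chr1:244854178-244854184 and chr1:244852887-244852893 on the minus strand.
TARDBP first site: aagtgtggcAATGTGAactgaagct
TARDBP second site: agttggaagAATGTGAtatttgttg
TARDBP last site: gtctttaacAATGTGAaatagtact
HNRNPU first miR-23a-3p site: tatctgtaaAATGTGActttttttt
HNRNPU second miR-23a-3p site: cccctcaccAATGTGAagtgaggaa
Matches to miR-27a-3p lay in HNRNPA1 (chr12:54286473-54286479, plus strand), HNRNPU (chr1:244852010-244852016, minus strand), SRSF1 (chr17:58005160-58005166, minus strand) and ELAVL1 (chr19:7961206-7961212 and chr19:7961104-7961110, minus strand).
HNRNPA1 site: attatttgtACTGTGAatataaatt
HNRNPU miR-27a-3p site: aggaaactcACTGTGAgattgctgt
SRSF1 site: actcttcagACTGTGAtattgtgta
ELAVL1 first site: taagcttcaACTGTGAaaatgatga
ELAVL1 second site: tgagaagaaACTGTGAagtatatga
A match is a description of the sequence and does not show that the site is bound.

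The Scr libraries held 14891239 and 14405250 counts, those of miR-23a KO held 16515261 and 15930779, and those of miR-27a KO held 15850589 and 15947308. Counts of the members ran from 23, for PTBP2, to 20218, for HNRNPA1. Levels between genes were compared as CPM (counts scaled to a common library size) per kilobase of the longest transcript. On that scale the Scr mean was 211 for HNRNPA1, a shuttling protein that binds nascent RNA throughout the transcriptome, and 177 for PTBP1, a repressor of exons next to pyrimidine tracts. It was 0.245 for PTBP2, the neuronal relative of PTBP1, and 0.721 for RBM12B. The median over the members was 35.6, with hnRNP genes at 6.44 to 211 and SR and TRA2 genes at 6.69 to 122.

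Markers of liver cells were present in each library. All 11 hepatocyte and hepatoblastoma markers exceeded 1 CPM in the 6 libraries. Their summed level was 30180 and 37350 CPM for Scr, 31880 and 32940 for miR-23a KO, and 25960 and 25870 for miR-27a KO, with SERPINA1 the most abundant over the libraries together. Within that list AFP, the fetal serum protein, stood at 2591 and 3916 CPM for Scr, 3810 and 6520 for miR-23a KO, and 185 and 192 for miR-27a KO, so it was lowest in miR-27a KO. TF, which carries iron, stood the other way, at 3319 and 2268 CPM for Scr, 2370 and 2067 for miR-23a KO, and 6551 and 6750 for miR-27a KO. APOA1, HNF4A and SERPINA1 were likewise higher in each miR-27a KO library than in either control. ALB, the main serum protein, was lowest in miR-27a KO like AFP, at 10430 and 15120 CPM for Scr, 7903 and 14610 for miR-23a KO, and 2089 and 2152 for miR-27a KO. In replicate 2 of Scr and of miR-23a KO, ALB exceeded SERPINA1, which had 11030 and 4639 CPM there. Markers of other cell types were low: blood markers summed to between 1.83 and 4.49 CPM, endothelial markers to between 3.35 and 6.84, and neuronal markers to between 0.0 and 1.09. The 2 fibroblast markers measured summed to 17.5 and 29.3 CPM for Scr, 29.8 and 19.7 for miR-23a KO and 5.76 and 5.12 for miR-27a KO, nearly all from PDGFRB, while COL1A1 had at most 2 counts. The part of these markers in the results was not tested.

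The miR-23a KO libraries stood apart from each other, while those of miR-27a KO were close together. The median gap between replicates over the 41 members, as an absolute log2 ratio, was 0.13 for Scr, 0.72 for miR-23a KO and 0.03 for miR-27a KO. Over all genes tested in miR-27a KO against Scr it was 0.28, 0.94 and 0.10. In miR-23a KO, replicate 2 was the higher for 32 of 41 members (7231 of 13820 genes in all), and 15 differed over 2-fold between the replicates (36.6%, against 47.0% of all genes). Sampling noise alone gives a chi-square near its degrees of freedom. Over genes with a summed count of at least 10, their ratio was 26.7 for Scr (14643 genes), 269 for miR-23a KO (14649 genes) and 2.47 for miR-27a KO (14449 genes). The miR-27a KO libraries were thus not copies of the same counts, but repeat libraries of a single RNA and separate samples cannot be told apart from this. They were treated as separate samples, as labelled. Nothing in the labels says whether replicates came from separate cultures, so p-values measure only the spread between these libraries, which may be technical.

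**Figure D1:**
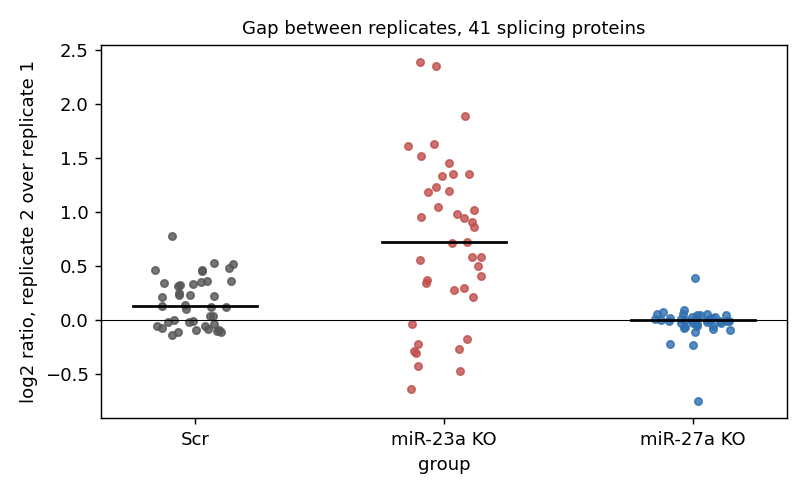
Log2 ratio of replicate 2 over replicate 1 for each of the 41 members (points) in each group, with the median as a line. The medians were 0.13 for Scr, 0.72 for miR-23a KO and -0.01 for miR-27a KO, and only the miR-23a KO points spread past 2-fold, for 15 members.

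In miR-27a KO, more of the splicing genes were called higher than lower against Scr. With edgeR, 8 of 41 members were called higher at an adjusted p under 0.05 (19.5%), where 4.91% of the 13820 genes tested were called higher. A single member, ELAVL1, was called lower, where 9.12% of all genes were. The fitted difference was positive for 34 of 41 members and 50.9% of all genes, and its median was 0.28 on the log2 scale, against 0.01 over all genes. For 32 members each miR-27a KO library exceeded each Scr library (32.4% of all genes), and for 7 each was below (31.9% of all genes). At the study threshold (over 1.5-fold with an adjusted p under 0.001) edgeR called 4 genes in all (0.0289%) and 0 members. DESeq2 called 893 genes and 1 member, SRSF1, at that threshold. The study itself reports more genes than either for each knockout at this nominal threshold, from q-values whose test its methods do not name. At an unadjusted p under 0.05 in edgeR stood 25 members, 22 higher and 3 lower. Of all genes 13.8% were higher and 18.4% lower at that level.

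TARDBP (gene 23435, chr1:11012344-11026420, plus strand), which represses cryptic exons, stood at 67.3 and 78.1 CPM in Scr and at 113 and 110 CPM in miR-27a KO. Both KO libraries lay above both controls. The fitted rise was 0.61 on the log2 scale (SE 0.10, edgeR adjusted p = 0.0245), a 1.53-fold difference. TARDBP and RBM12B were followed as candidate targets of the study. The study chose its candidates partly for a rise over 1.5-fold in both knockouts in these same data. The values of these genes here are therefore not independent of that choice. RBM12, an RNA-binding protein with several recognition motifs, had 44.5 and 52.3 CPM in Scr and 69.5 and 67.8 in miR-27a KO. Its fitted rise was 0.50 (SE 0.11, edgeR adjusted p = 0.0443). RBM12 shares exons with CPNE1 on the same strand, which had between 7918 and 10814 counts, and how shared reads were assigned is not given in the sources used here. RBM12B, its relative on another chromosome, was at 5.01 and 5.48 CPM in Scr and 7.82 and 6.69 in miR-27a KO. That difference of 0.46 (SE 0.23) was not called (edgeR adjusted p = 0.231).

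Of the 12 SR and TRA2 genes, 4 were called higher and 0 lower, beside 7 higher and 1 lower at an unadjusted p under 0.05. SRSF1, the prototype SR protein, had 93.3 and 129 CPM in Scr and 184 and 186 in miR-27a KO. The rise was 0.74 on the log2 scale (SE 0.16, edgeR adjusted p = 0.041). TRA2A, a relative of the fly sex-determination factor transformer 2, had 15.9 and 18.5 CPM in Scr and 29.03 and 27.5 in miR-27a KO, a rise of 0.71 (SE 0.14, edgeR adjusted p = 0.0366). In both genes the miR-27a KO libraries were close together and above either control. SRSF7, which also helps export messages from the nucleus, had 85.6 and 81.3 CPM in Scr and 117 and 115 in miR-27a KO, a rise of 0.47 (SE 0.08, edgeR adjusted p = 0.0268). SRSF3, the smallest classical SR protein, had 204 and 191 CPM in Scr and 259 and 276 in miR-27a KO, a rise of 0.43 (SE 0.09, edgeR adjusted p = 0.0342). Among members not called, SRSF11 had 18.6 and 32.0 CPM in Scr and 40.7 and 39.1 in miR-27a KO, SRSF4 had 79.6 and 76.8 against 61.1 and 62.9, and the differences over the family ran from -0.34 to 0.74.

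Of the 19 hnRNP genes, 2 were called higher and 0 lower, beside 9 higher and 1 lower at an unadjusted p under 0.05. HNRNPU, a nuclear scaffold protein that binds chromatin-associated RNA, had 244 and 289 CPM in Scr and 400 and 403 in miR-27a KO. The rise was 0.59 on the log2 scale (SE 0.11, edgeR adjusted p = 0.0286). HNRNPA1 had 876 and 863 CPM in Scr and 1175 and 1218 in miR-27a KO, a rise of 0.46 (SE 0.08, edgeR adjusted p = 0.0289). The gap between the groups exceeded that between replicates in both. A near copy of HNRNPA1, HNRNPA1L2, had 71 to 179 counts, and exons of HNRNPU overlap COX20 on the opposite strand, which had 381 to 963 counts. In all, 13 members share exon positions with another gene measured, 3 on the same strand and 10 on the opposite one. The labels and the methods name different library kits, and whether counting used the strand is not given in the sources used here. The hnRNP median was 0.25, and the family ran from -0.35 for HNRNPL, which binds CA repeats and had 363 and 337 CPM in Scr and 276 and 277 in miR-27a KO (edgeR adjusted p = 0.052), to 0.59. HNRNPAB, at 259 and 278 CPM in Scr and 240 and 247 in miR-27a KO, was not called.

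ELAVL1 (HuR), which binds AU-rich elements and stabilises messages, went the other way. It had 173 and 157 CPM in Scr and 124 and 124 in miR-27a KO, and fell by 0.42 on the log2 scale (SE 0.09, edgeR adjusted p = 0.0375). TARDBP and the FET proteins EWSR1 and TAF15 were fitted between 0.26 and 0.61, and of these TARDBP alone was called. MATR3, a nuclear matrix protein, and RBFOX2, which binds UGCAUG, were not called, with fitted differences of 0.38 and 0.15. The PTBP pair differed in sign without a call: PTBP1 had 665 and 642 CPM in Scr and 583 and 580 in miR-27a KO, while PTBP2 had 2.71 and 3.18 CPM in Scr and 7.21 and 4.28 in miR-27a KO, from at most 119 counts.

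**Figure D2:**
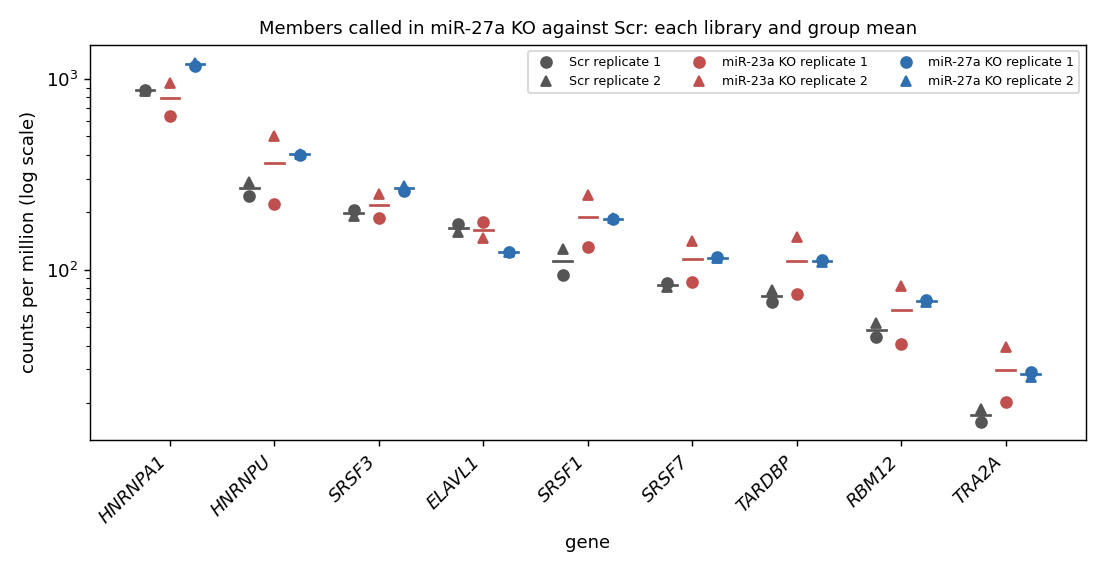
CPM on a log scale for the 9 members called in miR-27a KO against Scr, with a circle for replicate 1, a triangle for replicate 2 and a line for the group mean. The miR-27a KO libraries lie above both Scr libraries for 8 genes and below for ELAVL1, and the miR-23a KO replicates are over 2-fold apart for 2 of the 9, HNRNPU and RBM12.

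The calls in miR-27a KO changed with the libraries used. Without miR-27a KO replicate 1, 0 members were called, where 0.776% of all genes were called higher and 2.19% lower. Without its replicate 2, 0 members were called, where 0.574% and 1.76% of all genes were. With all 6 libraries in 1 fit 0 members were called, where 0.0212% and 0.431% of all genes were. The median difference was between 0.28 and 0.31 in these fits. Without Scr replicate 1, 22 members were called higher and 5 lower, where 18.0% of all genes were called higher and 19.8% lower. Without Scr replicate 2, 28 were called higher and 5 lower, where 23.8% and 25.6% of all genes were.

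The other splicing genes, a list of 87 of which 80 were tested, gave 12 calls higher and 4 lower in miR-27a KO (edgeR), with a median of 0.12. Of all genes 4.91% were called higher and 9.12% lower, and the same shares stand behind each list of these genes. Of the 11 kinases and import receptors of SR and hnRNP proteins, 2 were called higher and 1 lower. CLK1, a kinase that phosphorylates SR proteins, had 8.77 and 10.4 CPM in Scr and 15.9 and 17.4 in miR-27a KO, a rise of 0.79 on the log2 scale (edgeR adjusted p = 0.047). TNPO2, an import receptor, had 145 and 144 CPM in Scr and 103 and 97.7 in miR-27a KO, and fell by 0.53 (edgeR adjusted p = 0.0187). Of 35 further regulators tested, 7 were called higher and 2 lower. ESRP1, an epithelial splicing regulator, had 1.81 and 2.70 CPM in Scr and 18.1 and 18.2 in miR-27a KO, a rise of 3.0 (edgeR adjusted p = 0.00669), and in miR-23a KO it had 1 count in each library. Its relative ESRP2 had 127 and 143 CPM in Scr and 92.8 and 99.7 in miR-27a KO, and fell by 0.49 (edgeR adjusted p = 0.0353). The ESRP pair thus moved in opposite directions. MBNL2, a muscleblind protein, had 17.5 and 27.2 CPM in Scr and 9.82 and 8.86 in miR-27a KO, and fell by 1.26 (edgeR adjusted p = 0.0355). FUBP1 had 47.9 and 59.9 CPM in Scr and 89.8 and 90.2 in miR-27a KO, a rise of 0.74 (edgeR adjusted p = 0.0266). Of these 6 named genes, 5 lost the call without at least 1 library. In the core machinery, 2 of 10 tri-snRNP genes were called higher, 1 of 14 U2 genes higher and 1 lower, and 0 of 10 Sm and U1 genes, of which 3 had an unadjusted p under 0.05.

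In miR-23a KO, the replicates lay on either side of the controls for many splicing proteins. Replicate 1 was below both Scr libraries for 22 of 41 members (43.7% of all genes) and above both for 11 (38.2% of all genes). Replicate 2 was above both for 29 (39.0% of all genes) and below both for 9 (46.4% of all genes). For 16 members replicate 1 was below and replicate 2 above, which held for 22.0% of all genes. No member was called by edgeR in either direction (0 of 41), nor was any of the 13786 genes tested (0.0%, also at the study threshold). At an unadjusted p under 0.05 stood 1 member, which was higher, where 0.856% of all genes were higher and 1.55% lower. DESeq2 called 63 genes and 0 members at an adjusted p under 0.05, and 26 genes and 0 members at the study threshold. The median fitted difference of the members was 0.35 on the log2 scale, against 0.16 over all genes, with 28 of 41 members and 63.0% of all genes positive. It was 0.70 without miR-23a KO replicate 1, where 9 members and 2.34% of all genes were called higher. It was -0.14 without replicate 2, where 2 members (4.88%) and 6.6% of all genes were called lower, and 0 members and 12.0% of all genes higher. Both libraries lay above both controls for 6 members (8.88% of all genes) and below for 5 (14.9% of all genes).

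HNRNPDL, a relative of HNRNPD that binds AU-rich RNA, had 40.9 and 56.1 CPM in Scr and 73.7 and 134 in miR-23a KO. It was the member with the lowest unadjusted p, and its difference of 1.18 (SE 0.51) had an edgeR adjusted p of 1.00. TARDBP had 74.7 and 148 CPM in miR-23a KO, the first within the range of Scr and the second above it, with a difference of 0.70 (SE 0.50). SRSF1 had 131 and 247 CPM in miR-23a KO, both above Scr, with a difference of 0.85 (SE 0.51). TRA2B, which favours exons rich in GAA, had 103 and 106 CPM in Scr and 144 and 167 in miR-23a KO, a difference of 0.65 (SE 0.43), and TRA2A, SRSF7 and HNRNPUL1 also lay above both controls. EWSR1, HNRNPA0, HNRNPF, SRSF4 and SRSF9 lay below both, by fitted differences of -0.24 to -0.10. RBM12 had 40.7 and 82.3 CPM and RBM12B 3.73 and 13.8 CPM in miR-23a KO, so each lay on both sides of Scr. By family, medians were 0.30 for hnRNP genes, 0.40 for SR and TRA2 genes and -0.01 for TARDBP with the FET proteins. Of the other splicing genes, 0 of 80 were called by edgeR. At an unadjusted p under 0.05 stood 1, where 0.856% of all genes were higher and 1.55% lower.

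The knockouts were then compared directly, without the Scr libraries that both comparisons above share. No member was called by edgeR (0 of 41), nor any of 13841 genes (0.0%, also at the study threshold). At an unadjusted p under 0.05 stood 0 members, where 4.66% of all genes were higher and 4.06% lower. DESeq2 called 477 genes and 0 members at an adjusted p under 0.05, and 236 genes and 0 members at the study threshold. The median difference was -0.01 on the log2 scale, against 0.11 over all genes, and was 0.00 with median-ratio scaling. For 4 members each miR-23a KO library exceeded each miR-27a KO library (18.7% of all genes), and for 8 each was below (20.7% of all genes). HNRNPDL was the highest, at 73.7 and 134 CPM in miR-23a KO against 44.6 and 58.4 in miR-27a KO, with a difference of 1.02 (SE 0.43, edgeR adjusted p = 0.630). HNRNPA1 was the lowest, at 637 and 951 CPM against 1175 and 1218, with a difference of -0.59 (SE 0.39). HNRNPK, a poly(C)-binding protein, had 387 and 569 CPM against 647 and 642, and HNRNPD had 223 and 289 against 347 and 341. ELAVL1 lay higher in miR-23a KO, at 178 and 146 CPM against 124 and 124, with a difference of 0.39 (SE 0.33). None of these differences was called. The counts changed with single libraries: 24 members were called higher and 11 lower without miR-23a KO replicate 1, where 28.5% of all genes were called higher and 29.3% lower. Without its replicate 2, 7 members were called higher and 31 lower, where 33.6% and 34.5% of all genes were.

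**Figure D3:**
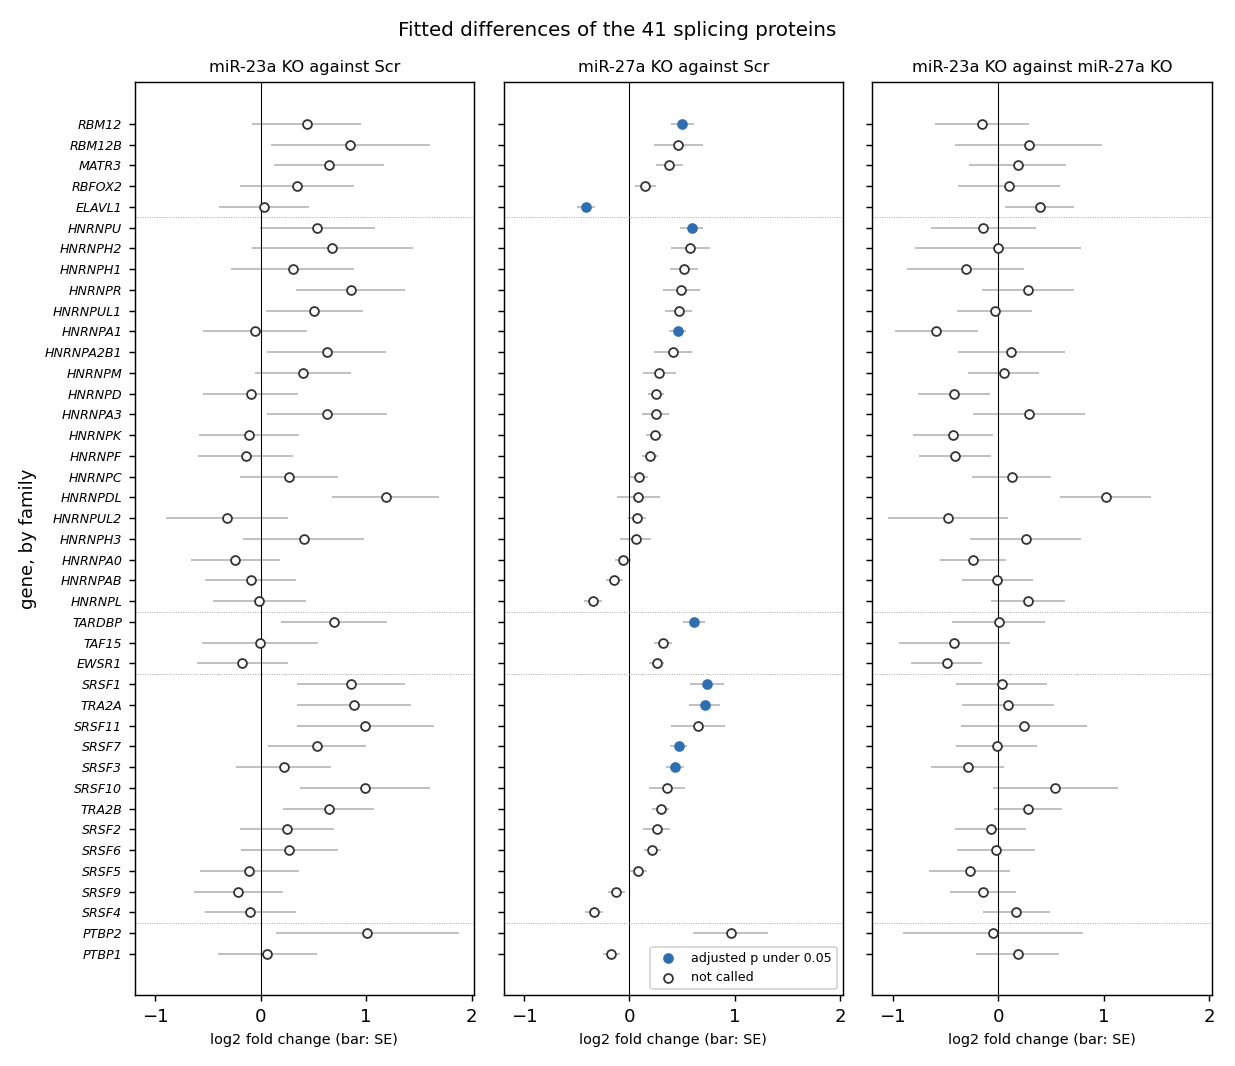
Fitted log2 fold changes (points) with standard errors (bars) of the 41 members in the 3 comparisons, grouped by family. Filled points were called by edgeR at an adjusted p under 0.05, which occurred for 9 members in miR-27a KO against Scr and for 0 in the others, where the bars are wider.

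Fitted differences from Scr varied with base composition. The longest transcripts of the members had a median GC content of 42.1%, against 49.7% over all genes tested. Across the 41 members, which share libraries and are not independent, the correlation of the difference with GC content was -0.59 for miR-23a KO and -0.55 for miR-27a KO against Scr, and -0.23 between the knockouts. The ratio between the miR-23a KO replicates also varied with GC content, with a correlation of -0.51 over the members and -0.64 over 13192 genes, against -0.37 in Scr and -0.03 in miR-27a KO over those genes. With GC content and length corrected, the median difference of the members was 0.15 in miR-27a KO, against 0.03 over all genes. In miR-23a KO it was 0.12, against 0.04 over all genes. In miR-27a KO, 7 members were then called higher and 1 lower, where 6.88% of all genes were called higher and 8.3% lower. TARDBP, HNRNPU, SRSF1, TRA2A and ELAVL1 were called with and without the correction. HNRNPA1, RBM12, SRSF3 and SRSF7 were called without it alone, and EWSR1, TAF15 and HNRNPR with it alone. The corrected differences were 0.38 for TARDBP, 0.40 for HNRNPU, 0.53 for SRSF1, 0.54 for TRA2A and -0.54 for ELAVL1. Those of the members called without the correction alone were 0.25 for HNRNPA1, 0.31 for RBM12, 0.17 for SRSF3 and 0.27 for SRSF7.

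**Figure D4:**
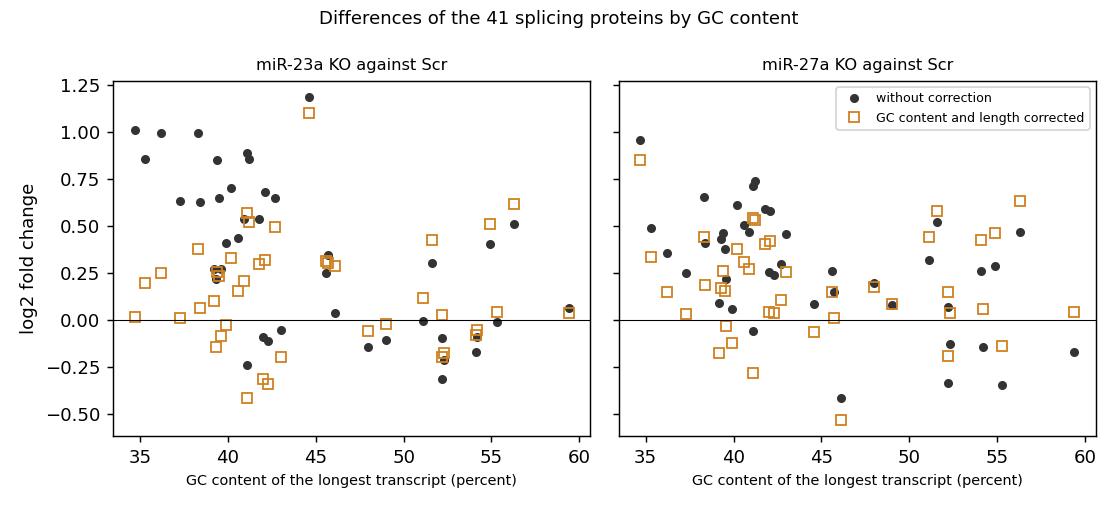
Fitted log2 fold change of each of the 41 members against the GC content of its longest transcript, without (filled) and with (open) a correction for GC content and length. Without it the differences were higher at low GC content, with correlations of -0.59 and -0.55.

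Members with a seed match were set beside those without, as a description. In miR-27a KO the median difference was 0.25 for the 7 members with a miR-27a-3p match and 0.29 for the 34 without, and of those 7 HNRNPA1, HNRNPU and SRSF1 were called higher and ELAVL1 lower. In miR-23a KO the median was 0.65 for the 9 members with a miR-23a-3p match and 0.26 for the 32 without. The members with a miR-23a-3p match were also the higher in miR-27a KO, at 0.41 against 0.26. Those with a miR-27a-3p match were the lower in miR-23a KO, at -0.05 against 0.41. The members with a miR-23a-3p match had a median GC content of 39.6%, against 44.3% without, and those with a miR-27a-3p match 43.0%, against 41.6%. The part of base composition in these differences was not tested.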

How the data were processed

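The authors deposited 1 value per gene and library; the columns are named FPKM, but the deposited values were taken to be expected counts, since library totals differ and 34.5% to 40.8% of the values over 0 are exactly whole. HISAT, StringTie, Cufflinks and GATK are named in the submitters' processing notes; versions and the genome build were not given in the sources used here. Expected counts were rounded, filtered with filterByExpr, scaled by TMM and tested for each pair of groups with the quasi-likelihood test of edgeR 4.0.16 (R 4.3.3), with Benjamini-Hochberg adjustment over all genes tested. CPM used TMM factors of the 6 libraries. Transcript lengths, GC content and 3'-UTRs came from GENCODE 29, matched for 17916 genes. The workflow was tested on simulated data. Alternatives tried were DESeq2 1.42.0, scaling by median ratios, keeping low counts, all libraries in 1 fit, a replicate block, a GC content and length correction by loess, both together, and leaving out each library. Named genes were TARDBP, RBM12B and RBM12, members called in any comparison, the 5 largest rises and falls without overlap, and the 3 largest called rises and falls of other splicing genes; HNRNPR, TAF15, HNRNPUL1, HNRNPH3, MATR3, RBFOX2 and the genes that share exons or sequence with members were named after their values were seen. The members and lists were chosen with earlier results of these data known.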

Additional observations from a re-analysis of the deposited data

Results flagged for a closer look

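In EWSR1, a FET protein, both miR-23a KO libraries lay below both Scr libraries and both miR-27a KO libraries above them, so the knockouts stood on opposite sides of the control. The direct difference was -0.49 on the log2 scale (edgeR adjusted p = 0.792), beside -0.17 for miR-23a KO and 0.26 for miR-27a KO against Scr. In HNRNPF, which binds G-rich RNA, the libraries were ordered the same way, with a direct difference of -0.41 (edgeR adjusted p = 0.824). Of all genes tested 6.01% stood on opposite sides in this way, against 4.88% of the members. Neither direct difference was called.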

How the results depend on the processing

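In miR-27a KO against Scr, the 9 called members kept their direction under the 7 alternatives and without each library. All 9 kept the call with DESeq2 and with median-ratio scaling, 8 with a replicate block, 5 with GC content and length corrected, 5 with both, 4 with no filter on low counts and 0 with all 6 libraries in 1 fit. Counts higher and lower were 10 and 2 with DESeq2 (5.71% and 10.5% of all genes), 4 and 0 with no filter (1.87% and 3.53%), and 0 and 0 with all 6 libraries in 1 fit (0.0212% and 0.431%). The median was 0.154 with the GC correction and 0.155 with block and correction, against 0.026 and 0.033 over all genes. The replicate block gave 10 higher and 1 lower in this comparison (5.97% and 10.2% of all genes). The blocks pair only a shared replicate number, and the correlation of replicate deviations across genes was 0.14, 0.02 and 0.02 in the 3 comparisons. Block and correction together called 1 member, HNRNPDL, higher in miR-23a KO against miR-27a KO (2.44%, where 3.62% of all genes were).

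Leaving out 1 library gave 0 to 28 members higher, 0 to 5 lower and medians of 0.224 to 0.388 in miR-27a KO against Scr; 0 to 9, 0 to 2 and -0.145 to 0.704 in miR-23a KO against Scr; and 0 to 24, 0 to 31 and -0.494 to 0.230 in miR-23a KO against miR-27a KO. A lone library left in a group was assumed to vary like the other group.

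Over the 41 members, the sign changed under at least 1 of the 7 alternatives for 9 in miR-23a KO against Scr, 7 in miR-27a KO against Scr and 12 in miR-23a KO against miR-27a KO. Among the members chosen by the rule for named genes, differences that were not called changed sign as follows. In miR-23a KO against Scr, ELAVL1 was -0.025 with all 6 libraries in 1 fit. With the GC correction HNRNPL was 0.041, SRSF3 -0.145 and SRSF4 0.023, and with block and correction HNRNPL was 0.037, SRSF3 -0.168 and PTBP2 -0.068. In miR-27a KO against Scr, the GC correction gave 0.059 for HNRNPAB, -0.064 for HNRNPDL, 0.035 for SRSF9 and 0.041 for PTBP1, and block and correction gave 0.064, -0.065, 0.035 and 0.042. In miR-23a KO against miR-27a KO, HNRNPAB was 0.008 with median-ratio scaling and 0.008 with DESeq2. TARDBP was -0.015 with no filter, -0.002 with all 6 libraries in 1 fit, -0.079 with the block, -0.051 with the GC correction and -0.058 with both. SRSF1 was -0.038, -0.023 and -0.023 with the block, the correction and both. With the correction and with both, SRSF11 was -0.082 and -0.116 and PTBP1 -0.002 and -0.003, and RBM12B was -0.008 with both.

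Leaving out 1 library changed the sign of 25, 2 and 28 of the 41 members in these comparisons. Among the members chosen by the rule alone, those that changed sign in miR-23a KO against Scr ran from -0.255 to 0.131 for HNRNPL, -0.132 to 0.112 for ELAVL1, -0.450 to 0.173 for HNRNPA1, -0.366 to 0.051 for HNRNPD, -0.494 to 0.105 for HNRNPK, -0.318 to 0.008 for SRSF4, -0.302 to 0.299 for PTBP1, -0.490 to 1.443 for RBM12B, -0.249 to 0.809 for RBM12, -0.274 to 0.965 for HNRNPU, -0.076 to 0.373 for SRSF3, -0.145 to 1.533 for SRSF11 and -0.748 to 1.685 for PTBP2. In miR-27a KO against Scr, where HNRNPH3 was the other member to change sign, the range was -0.120 to 0.334 for HNRNPDL. In miR-23a KO against miR-27a KO the ranges of the members chosen by the rule were -0.749 to 0.254 for RBM12, -0.860 to 0.324 for HNRNPU, -0.418 to 0.288 for SRSF7, -0.185 to 0.471 for PTBP1, -1.705 to 0.674 for PTBP2, -0.571 to 0.400 for TARDBP, -0.953 to 0.925 for RBM12B, -0.180 to 0.136 for HNRNPAB, -0.494 to 0.406 for SRSF1, -0.795 to 0.828 for SRSF11 and -0.470 to 0.476 for TRA2A. The cause was not tested. With 2 libraries in each group, small differences may have been missed, and the smallest difference that could be detected was not measured. Members with few counts, such as PTBP2, are the least precise.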
